A study of Mus musculus with 6 samples.

Results

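Imprinted growth genes were examined in RNA-seq counts from palatal shelves of E14.25 mouse embryos. The set was the 8 symbols Igf2, H19, Dlk1, Peg3, Mest, Plagl1, Grb10 and Ndn, taken by name from 23366 genes in the count files. All 8 were found, and all 8 were among the 14233 genes with enough counts to test. The palatal shelves are the paired outgrowths that meet to form the secondary palate, and their mesenchyme descends mostly from the cranial neural crest. Wild type (WT) embryos gave 3 libraries, numbered 2, 3 and 4 in the labels, and Kmt2dfl/fl Wnt1-Cre embryos gave 3 libraries, numbered 1, 2 and 3. In the second group, called the knockout here, Wnt1-Cre acts in the neural crest lineage, so palatal epithelium, endothelium and muscle are not its targets. The labels do not say whether the wild type embryos carried a floxed allele or Cre. Kmt2d encodes a histone H3 lysine methyltransferase of enhancers, and the question here is what these genes do in the palate when the neural crest lacks it.

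Imprinted genes are transcribed mainly from the allele of one parent, an allele choice set by DNA methylation inherited from the germ line. Many act on the size of the embryo and placenta, and as a broad rule those expressed from the paternal allele promote growth and those expressed from the maternal allele restrain it. In the mouse embryo Igf2, Dlk1, Peg3, Mest, Plagl1 and Ndn are expressed mainly from the paternal allele, and H19 and, outside neurons, Grb10 from the maternal allele. Counts of whole genes do not separate the alleles, so nothing below is a measure of imprinting itself.

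Gene counts per library ranged from 20785074 to 24916079 in the wild type and from 12721979 to 20203309 in the knockout. Knockout library 2 stood apart: outside annotated genes lay 47.5% of its listed read pairs (12.3% to 18.1% in each of the other 5), and its level of the muscle gene Ttn was 10160 CPM (read pair counts relative to normalised library size) against 66.3 to 191 CPM elsewhere. The targeted gene, listed as Mll2, had a wild type mean of 193 ± 20.6 and a knockout mean of 329 ± 184 CPM (SD of 3 each, log2 fold change 0.77, and 0.21 without knockout library 2), and a count over the whole gene does not check the deletion. Of the palatal mesenchyme markers, 12 of 12 were high enough to test, a weak check of the labelled tissue because 14233 of 23366 genes were. They summed to 1401 to 1487 CPM in the wild type and 1633 to 1788 CPM in the knockout. Prrx1 led these sums, at 591 ± 34.8 and 801 ± 135 CPM (SD of 3 each, wild type first), and 6 of the 12 had a log2 fold change above 0.

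Igf2, H19 and Mest stood at similar levels in all 6 libraries, and Peg3 and Plagl1 varied mainly through knockout library 2. Dlk1 was lower and Grb10 slightly higher in each knockout library than in each wild type library, and Ndn was lower in 2 of 3. Groups that did not overlap, as for Dlk1 and Grb10, were found in 23.5% of all genes tested. With all 6 libraries, 0 of the 8 passed an adjusted p of 0.05 (edgeR quasi-likelihood test, Benjamini-Hochberg adjustment over all genes tested), where 0.534% of all genes tested did (76 genes, 14 higher and 62 lower, or 0.0984% and 0.436%). At an unadjusted p under 0.05 the count was 1 of 8, Dlk1, against 2021 of 14233 genes. By the same call DESeq2, which passed 486 genes in all, gave 1 of 8, again Dlk1, and limma voom, which passed 60, gave 0. The median log2 fold change, knockout over wild type, was 0.028 for the 8 genes and 0.011 for all genes tested. Without knockout library 2 it was -0.10 for the 8 genes, a change of sign, and 0.016 for all genes. With all 6 libraries the median size of the change without its sign was 0.15 and 0.20.

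The sequences upstream of Dlk1 and Grb10 are shown because these were the members whose groups did not overlap, in opposite directions. That alone does not set them apart, because 23.5% of all genes tested had groups that did not overlap (12.3% higher and 11.2% lower). Each is the 250 bases before a transcription start, 5′ to 3′ on the gene's strand, from RefSeq on GRCm38.p6, a later build than the mm9 named for the counts. Capitals mark CG dinucleotides, the targets of DNA methylation. The Dlk1 window is chr12:109452573-109452822 on the plus strand and the Grb10 window, at the more upstream of 2 listed starts, is chr11:12037421-12037670 on the minus strand.
Dlk1: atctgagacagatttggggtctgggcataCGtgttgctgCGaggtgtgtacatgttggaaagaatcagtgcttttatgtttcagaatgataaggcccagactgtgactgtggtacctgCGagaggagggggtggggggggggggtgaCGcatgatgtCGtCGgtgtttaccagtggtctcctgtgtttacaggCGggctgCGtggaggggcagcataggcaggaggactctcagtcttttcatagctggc
Grb10: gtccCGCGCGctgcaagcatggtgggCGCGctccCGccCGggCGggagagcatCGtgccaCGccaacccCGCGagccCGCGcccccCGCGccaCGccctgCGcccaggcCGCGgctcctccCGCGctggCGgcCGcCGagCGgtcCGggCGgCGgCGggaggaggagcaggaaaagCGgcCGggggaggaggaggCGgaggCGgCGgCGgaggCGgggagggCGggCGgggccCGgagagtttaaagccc

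The Dlk1 window held 8 CG dinucleotides and the Grb10 window 40, where the median over 32851 listed starts was 6 (quartiles 2 and 16). More CG than in 98.7% of starts was thus found at this Grb10 start, and the other listed Grb10 start held 8. Of the 8 genes, 7 had a listed start, 13 starts in all. The GC box GGGCGG, searched on both strands, was in 7 of these 13 windows and in 32.7% of all windows. Among the 7 are 2 Mest windows of nearly the same sequence (chr6:30737800-30738049 and chr6:30737803-30738052), so the windows are not separate counts. The palindrome GGGGCCCC, a word bound by PLAGL1, was in 1 of the 13, that of Peg3, and in 0.889% of all. The TATA box TATAAA on either strand was in 0 of the 13 and in 12.4% of all. These are matches of letters in a window, not sites shown to be bound, and counts per gene do not show which start was used.

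Igf2, H19 and Mest also host microRNA genes, and their mature products, from RefSeq on GRCm38.p6, are shown because the files count these as features of their own. Mir335 lies within Mest, Mir483 within Igf2 and Mir675 within H19. Capitals mark the seed, bases 2 to 8.
mmu-miR-335-5p: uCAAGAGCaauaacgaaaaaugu
mmu-miR-335-3p: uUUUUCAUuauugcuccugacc
mmu-miR-483-5p: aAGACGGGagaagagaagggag
mmu-miR-483-3p: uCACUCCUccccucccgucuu
mmu-miR-675-5p: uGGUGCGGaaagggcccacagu
mmu-miR-675-3p: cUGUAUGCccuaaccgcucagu

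No 2 of these 6 share a seed. An mRNA library does not measure mature microRNAs, so the counts below are of longer RNA at the hairpins. Mir335 had 5, 2 and 2 counts in wild type libraries 2, 3 and 4 and 4, 68 and 5 in knockout libraries 1, 2 and 3, so its high value was in the library that stood apart. Mir483 had 2 to 8 counts in each library. Mir675 was listed at 0 in all 6, which by sampling alone allows up to 3 counts per library. Its host H19 had 50522 to 115365 counts per library. How pairs that overlap both a host and its microRNA were counted is not given in the sources used here, so that bound may not hold. None of these 3 features was high enough to test.

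Per length, H19 was the highest of the 8 genes and Ndn the lowest. Length here is every annotated exon base of a gene, joined over its listed transcripts. A gene expressed mainly as a shorter transcript would stand higher, so the order depends on this choice. On the scale of CPM per kilobase of annotated exon, H19 stood at 1735 ± 61.1 (SD, n = 3) in the wild type, Igf2 at 567 ± 33.2, Mest at 338 ± 13.5 and Grb10 at 286 ± 5.89. Below these, Peg3 stood at 82.6 ± 10.9, Plagl1 at 80.8 ± 13.5, Dlk1 at 70.1 ± 0.841 and Ndn at 32.0 ± 2.24 CPM per kilobase. Peg3 and Plagl1 were closer together than their spread, and both overlapped Dlk1 in the wild type. In the knockout Plagl1 stood at 94.7 ± 34.0 and Peg3 at 89.2 ± 22.6 CPM per kilobase, in the reverse order and again closer than their spread. Mest at 339 ± 12.3 and Grb10 at 329 ± 13.8 CPM per kilobase were also within their spread there, and the order of the others was that of the wild type. By mean CPM over the 6 libraries, without regard to length, H19 was the 4th and Igf2 the 6th most abundant of the genes tested, and Ndn ranked 1674th. Together the 8 genes took 1.12% to 1.29% of gene counts in the wild type and 0.932% to 1.20% in the knockout. The ribosomal RNA gene Rn45s took 16.2% to 20.7% of gene counts in the wild type and 35.1%, 18.6% and 30.0% in knockout libraries 1, 2 and 3, and its part in these shares was not tested. After normalisation the 8 genes summed to 10594 to 11481.5 CPM in the wild type and 11005 to 11549 CPM in the knockout, so the groups overlapped.

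**Figure D1:**
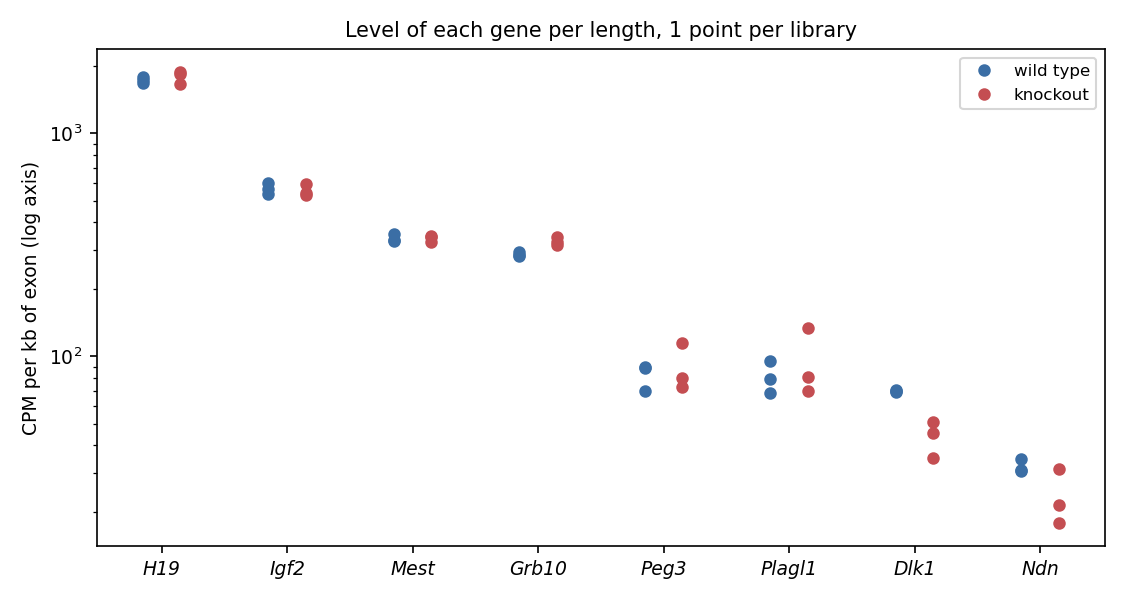
Level of each of the 8 genes in CPM per kilobase of exon (vertical log axis), 1 point per library, wild type in blue and knockout in red, genes ordered by their wild type mean. H19 lies highest at 1735 and Ndn lowest at 32.0 CPM per kilobase in the wild type. Only for Dlk1 and Grb10 are the points of the 2 groups fully apart, as they were for 23.5% of all genes tested.

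Igf2, the secreted growth factor that acts through the IGF1 receptor and is cleared by the IGF2 receptor, was level. It stood at 3155, 2807 and 2966 CPM in wild type libraries 2, 3 and 4 and at 2790, 3118 and 2823 CPM in knockout libraries 1, 2 and 3. The groups overlapped, and the highest value was in the wild type and the lowest in the knockout by a narrow margin. For Igf2 the fitted log2 fold change was -0.032 (SE 0.13, adjusted p = 0.921), with a 95% interval of the fold from 0.798 to 1.20. The antisense transcript Igf2as, whose reads may not be separable from those of Igf2, stood at 20.5 to 20.9 CPM in the wild type and at 23.2, 44.0 and 18.6 CPM in knockout libraries 1, 2 and 3 (adjusted p = 0.482).

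H19, the noncoding RNA next to Igf2 that shares its enhancers and is expressed from the other allele, was also level. Its values were 4106, 3966 and 3827 CPM in wild type libraries 2, 3 and 4, and 4315, 3824 and 4209.9 CPM in knockout libraries 1, 2 and 3. Knockout library 2 had the lowest value of all 6 and knockout library 1 the highest, so the groups overlapped. For H19 the fitted log2 fold change was 0.054 (SE 0.13, adjusted p = 0.864), and the 95% interval of the fold ran from 0.845 to 1.27. Scaled by total counts alone it was -0.19, and 0.040 relative to the median of all genes under that scaling.

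Within each library the ratio of Igf2 to H19 counts does not depend on any scaling of libraries. It was 0.768, 0.708 and 0.775 in wild type libraries 2, 3 and 4 and 0.646, 0.815 and 0.670 in knockout libraries 1, 2 and 3. Knockout libraries 1 and 3 lay below all 3 wild type libraries and knockout library 2 above them. The mean log2 ratio was lower by 0.085 in the knockout (-0.42 ± 0.072 in the wild type and -0.50 ± 0.18 in the knockout, SD, n = 3 each, two-sided exact permutation test, p = 0.5, and 0.5 adjusted over the 2 ratios compared). Without knockout library 2 the difference was -0.19 (exact permutation test, p = 0.2). The smallest p that either design allows is 0.1.

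Dlk1, a membrane protein with EGF repeats related to the Notch ligands, whose shed ectodomain restrains the differentiation of adipocytes and other mesenchymal cells, was the member that differed most. Wild type libraries 2, 3 and 4 stood at 335, 339.6 and 332 CPM, a coefficient of variation of 1.20%. Knockout libraries 1, 2 and 3 stood at 168, 244 and 216 CPM. All 3 knockout libraries lay below all 3 wild type libraries, and the knockout libraries varied more among themselves (coefficient of variation 18.4%). Groups did not overlap, in this lower direction, in 11.2% of all genes tested. The log2 fold change was -0.68 (SE 0.15, adjusted p = 0.132), which is 1.60-fold lower, with a 95% interval of the fold from 0.492 to 0.791. Without knockout library 2 Dlk1 passed the threshold, at a log2 fold change of -0.81 (SE 0.10, edgeR adjusted p = 0.00469), where 2.12% of all genes passed and 1.57% did so in the lower direction. The higher direction held 0.554% of genes in that fit. With each other library left out Dlk1 did not pass (adjusted p = 0.151 to 0.504, where 0% to 0.138% of genes passed: 0.0207% without wild type library 4, 0.138% without knockout library 1 and 0.0755% without knockout library 3), and the log2 fold change over all 6 such fits lay between -0.81 and -0.54. DESeq2 on all 6 libraries gave -0.69 (adjusted p = 0.00247), where it passed 486 genes in all.

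Counts of a whole tissue cannot tell fewer cells of a type from less RNA per cell. Beside the lower Dlk1, the summed level of 8 endothelial markers was 281 to 310 CPM in the wild type and 217 to 253 CPM in the knockout, and that of 10 epithelial markers was 654 to 789 and 331 to 590.4 CPM. Of 7 macrophage markers the sum was 57.0 to 62.1 and 36.9 to 42.5 CPM, and of 8 pericyte and smooth muscle markers 280.1 to 348 and 221 to 270 CPM. Pdgfrb led the pericyte sum, at 162 ± 4.55 and 121 ± 29.2 CPM (SD of 3 each, wild type first). Log2 fold changes above 0 were found for 0 of 8 endothelial and 0 of 10 epithelial genes. They were also found for 1 of 7 macrophage genes (Cd68) and 2 of 8 pericyte genes (Rgs5 and Abcc9). With all 6 libraries 0 genes of these 4 lists passed the threshold, and without knockout library 2 the number was 3 of the epithelial and 1 of the macrophage genes, in the lower direction. In that fit 1.57% of all genes passed in the lower direction. Cartilage and bone markers summed to 317 to 1228 CPM in the wild type, highest in library 2, and to 225 to 293 CPM in the knockout. The cartilage gene Col2a1 led this sum, at 463 ± 361 and 169 ± 71.1 CPM (SD of 3 each, wild type first). Of 8 tested genes of this list 2 had a log2 fold change above 0, the bone genes Ibsp (14.5 ± 13.2 and 18.7 ± 31.7 CPM) and Sp7 (24.8 ± 13.2 and 26.9 ± 21.8 CPM), both with overlapping groups. Skeletal muscle markers other than Ttn summed to 262 to 504 CPM in the wild type, and to 311, 1390.5 and 206 CPM in knockout libraries 1, 2 and 3. Of the sum in knockout library 2, Myh3 held 804 and Myh8 223 CPM. Myod1 stood at 17.1 CPM there (7.8 to 15.7 CPM in the wild type) and Myog at 27.5 CPM (20.7 to 31.4 CPM in the wild type). Schwann cell and melanoblast markers summed to 74.6 to 78.7 CPM in the wild type and 60.7 to 84.3 CPM in the knockout, so the groups overlapped. Erythroid and liver markers summed to 504 to 957 and 253 to 1330 CPM, also with overlap. The part of these cell types in the Dlk1 difference was not tested.

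Meg3, the maternally expressed noncoding RNA of the locus that holds Dlk1, stood at 349, 353 and 209.6 CPM in wild type libraries 2, 3 and 4 and at 374, 1703 and 207 CPM in knockout libraries 1, 2 and 3 (log2 fold change 1.32, adjusted p = 0.414, and -0.072 without knockout library 2). The ratio of Dlk1 to Meg3 counts was 0.962, 0.961 and 1.58 in the wild type libraries and 0.449, 0.143 and 1.04 in the knockout libraries, in the same orders. Knockout library 3 lay within the wild type range and the other knockout libraries below it. The log2 ratio was 0.18 ± 0.41 in the wild type and -1.30 ± 1.44 in the knockout (SD, n = 3 each), a difference of -1.48 (two-sided exact permutation test, p = 0.3, and 0.5 adjusted over the 2 ratios), and of -0.73 without knockout library 2 (exact permutation test, p = 0.4). Rtl1, a retrotransposon-derived gene of that locus, stood at 3.9 to 5.1 CPM in the wild type and at 3.9, 14.1 and 6.2 CPM in knockout libraries 1, 2 and 3.

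**Figure D2:**
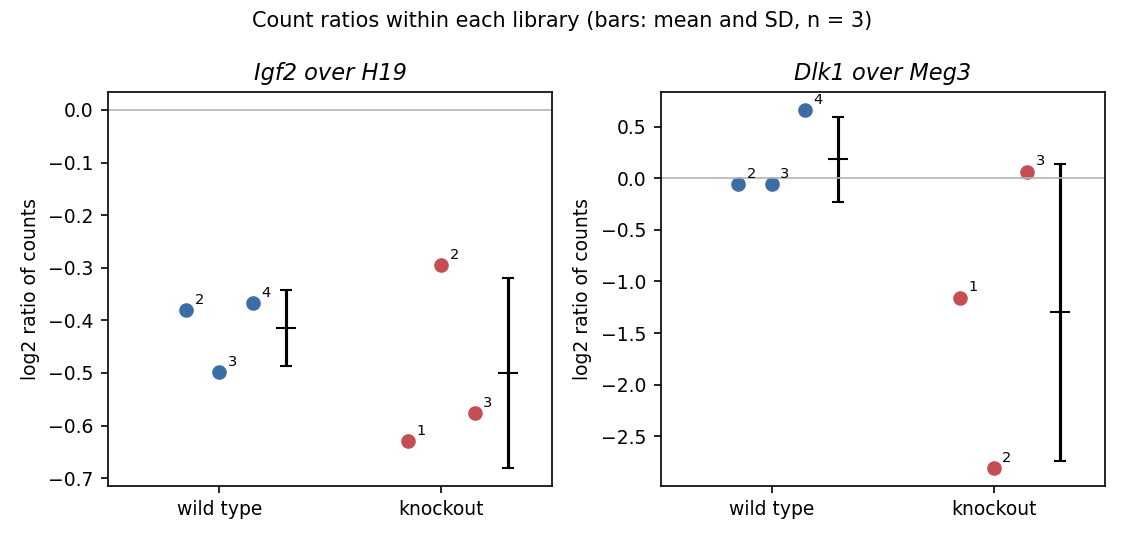
Log2 ratio of counts within each library for Igf2 over H19 (left) and Dlk1 over Meg3 (right), labelled by replicate number, with the mean and SD of each group in black. The Dlk1 to Meg3 ratio spans from 0.063 in knockout library 3 to -2.80 in knockout library 2, and neither ratio separates the groups.

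Grb10, an adaptor protein that binds the insulin and IGF1 receptors and dampens their signalling, stood at 1502, 1464 and 1442 CPM in wild type libraries 2, 3 and 4. In knockout libraries 1, 2 and 3 it stood at 1763, 1624 and 1671 CPM. All 3 knockout libraries lay above all 3 wild type libraries, a separation in the higher direction that 12.3% of all genes tested had. The log2 fold change was 0.20 (SE 0.11, adjusted p = 0.431), a 1.15-fold difference with a 95% interval from 0.959 to 1.37. It lay between 0.17 and 0.22 with any 1 library left out (edgeR adjusted p = 0.186 to 0.779), and it became -0.041 when counts were scaled by totals alone, a setting that moved the median of all genes to -0.23. Relative to that median the Grb10 value was 0.19. Ddc, beside it, differed by 0.24 on the log2 scale (adjusted p = 0.781), and Cobl, on the other side, by -0.080 (adjusted p = 0.770).

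**Figure D3:**
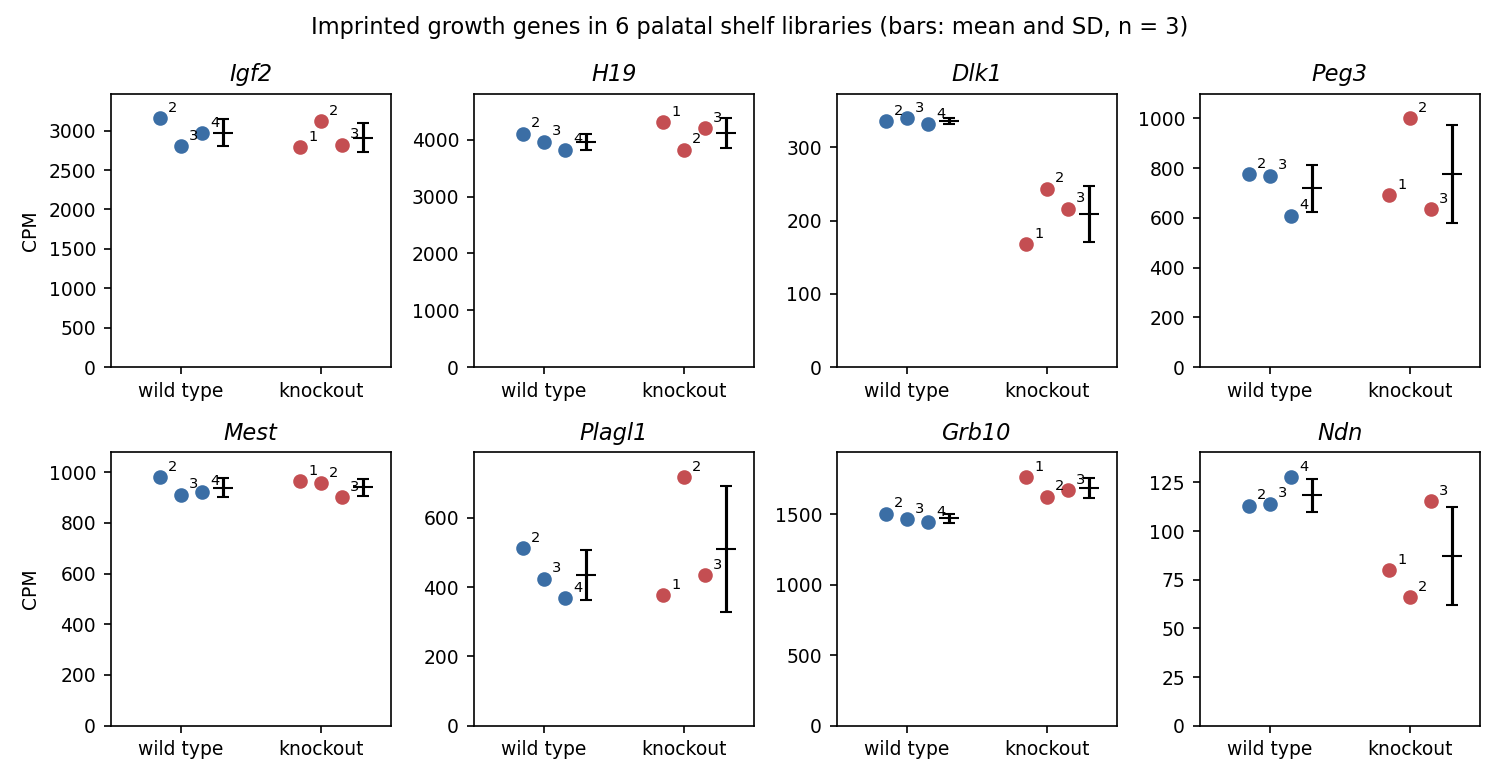
CPM of the 8 genes in each library, labelled by replicate number, wild type in blue and knockout in red, with the mean and SD (n = 3) in black, each axis starting at 0. Dlk1 is the gene whose knockout points (168 to 244 CPM) lie furthest below its wild type points (332 to 339.6 CPM), Grb10 is separated by a smaller step, and knockout library 2 is the highest point for Peg3 and Plagl1.

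Plagl1 and Peg3 encode zinc finger proteins of the nucleus, and Plagl1 (also called Zac1) is known as a regulator of other imprinted genes including Igf2, H19 and Dlk1. Plagl1 stood at 512, 424 and 368 CPM in wild type libraries 2, 3 and 4 and at 377, 718 and 435 CPM in knockout libraries 1, 2 and 3. Its value in knockout library 2 was 1.77 times the mean of the other knockout libraries, which lay within the wild type range. The log2 fold change was 0.23 (SE 0.25, adjusted p = 0.682) and -0.11 without knockout library 2 (adjusted p = 0.758), a change of sign. Peg3 stood at 776, 769.8 and 609 CPM in the wild type and at 692, 999.7 and 635 CPM in the knockout, in the same orders. Knockout library 2 was again the highest, at 1.51 times the mean of the other knockout libraries, and the groups overlapped. The Peg3 log2 fold change was 0.11 (SE 0.20, adjusted p = 0.810) and -0.12 without knockout library 2 (adjusted p = 0.653). The part of the depth and read makeup of that library in these values was not tested.

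The neighbours of Peg3 were also highest in knockout library 2. Zim1, the maternally expressed zinc finger gene beside it, stood at 56.1, 49.1 and 30.3 CPM in wild type libraries 2, 3 and 4 and at 72.2, 192 and 55.1 CPM in knockout libraries 1, 2 and 3 (adjusted p = 0.323). Usp29, which starts near Peg3 on the opposite strand, stood at 7.9 to 10.5 CPM in the wild type and at 8.7, 16.9 and 9.1 CPM in the knockout libraries (adjusted p = 0.541). Neither separated the groups.

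Mest, a protein of the alpha/beta hydrolase fold, had the smallest log2 fold change of the 8. It stood at 981, 911 and 923 CPM in wild type libraries 2, 3 and 4 and at 963, 956 and 901 CPM in knockout libraries 1, 2 and 3. The groups overlapped, with means of 938 ± 37.4 and 939.8 ± 34.1 CPM (SD, n = 3 each). The log2 fold change was 0.0021 (SE 0.11, adjusted p = 0.994) and -0.019 without knockout library 2, and the 95% interval of the fold ran from 0.843 to 1.19. Copg2, a coat protein gene that lies tail to tail with Mest, stood at 52.4 to 59.0 CPM in the wild type and 38.7 to 59.9 CPM in the knockout (adjusted p = 0.797).

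Ndn encodes necdin, a MAGE family protein that restrains cell division in neurons and other cells. It stood at 113, 114 and 128 CPM in wild type libraries 2, 3 and 4 and at 80.1, 66.1 and 115 CPM in knockout libraries 1, 2 and 3. Knockout libraries 1 and 2 lay below all wild type libraries and knockout library 3 lay within their range. For Ndn the fitted log2 fold change was -0.44 (SE 0.20, adjusted p = 0.362), with a 95% interval of the fold from 0.536 to 1.01. It was -0.29 without knockout library 2 and -0.70 without knockout library 3, and leaving out any 1 library gave no pass (edgeR adjusted p = 0.122 to 0.718). Neuron markers, 10 genes, summed to 164 to 266 CPM in the wild type and to 119, 348 and 219 CPM in knockout libraries 1, 2 and 3. The part of neurons in the Ndn values was not tested. Magel2 and Mkrn3, the neighbours of Ndn in the cluster linked to Prader-Willi syndrome, stood at 5.1 to 8.9 and 3.6 to 4.4 CPM in the wild type, with adjusted p = 0.733 and 0.693. Magel2 reached 19.8 CPM in knockout library 2 against 4.3 and 5.1 CPM in the other knockout libraries.

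**Figure D4:**
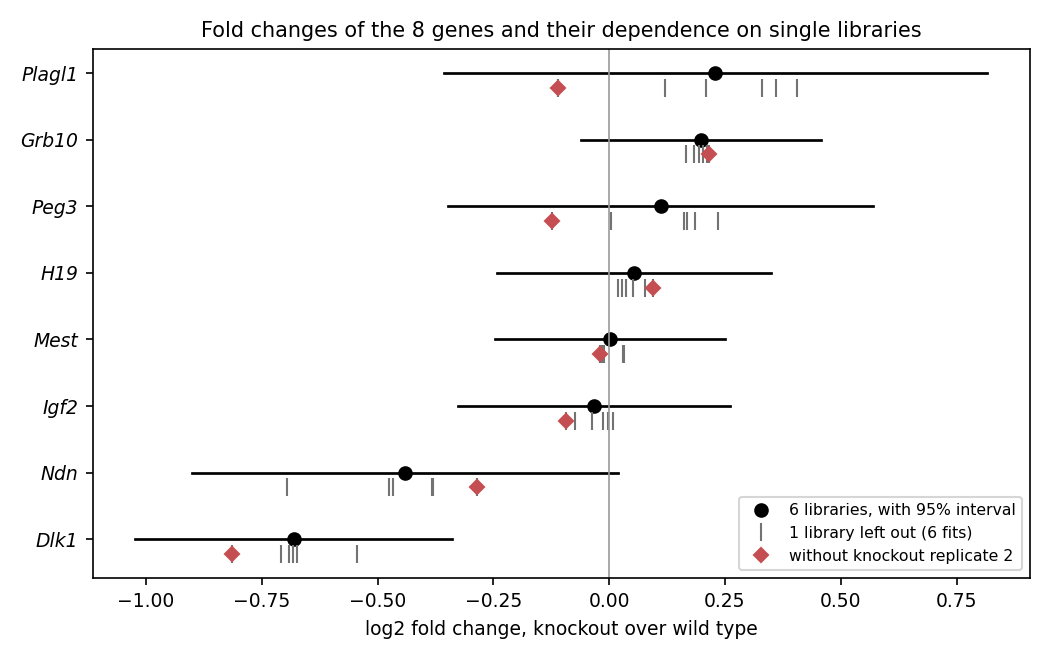
Log2 fold change of each gene, knockout over wild type (horizontal axis), as a black point with its 95% interval over 6 libraries, grey ticks for the 6 fits with 1 library left out and a red diamond for the fit without knockout library 2. Dlk1 has the only interval that lies wholly below 0, and the red diamonds of Plagl1 (-0.11), Peg3 (-0.12) and, close to 0, Mest (-0.019) lie on the other side of 0 from their points.

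The genes whose pattern over the 6 libraries was most like that of a member were found by the root mean square difference of log2 CPM after each gene's mean was removed, among 9258 genes of at least 10 CPM. For Dlk1 these were Ogn, a small proteoglycan of connective tissue, at 0.13, Egfl6, a secreted protein with EGF repeats, at 0.14, and Vat1l at 0.14, where the median gene stood at 0.43. Ogn had means of 184 ± 22.1 and 114 ± 31.7 CPM (SD of 3 each), wild type first. For Ndn they were Tnfaip8 at 0.051, Ccm2 at 0.083 and Tspan13 at 0.089. Grb10 had Faxc at 0.018, Samd14 at 0.030 and Cmip at 0.031. Plagl1 had Atp13a3 at 0.057, Fnip1 at 0.069 and Sec24a at 0.071, and Peg3 had Ate1 at 0.049, Kidins220 at 0.053 and Frs2 at 0.058. The level genes had other level genes beside them: Rhot1, Mgat5 and Sppl2a for Igf2, Os9, Narfl and Nob1 for H19, and Arhgef40, D19Ertd737e and Stk25 for Mest, each at 0.019 to 0.029. Within the 8, Igf2 and Mest were nearest to each other (0.057), as were Peg3 and Plagl1 (0.15) and Dlk1 and Ndn (0.33, where the median gene stood at 0.43 from Dlk1 and 0.35 from Ndn, so the pair was little closer than that), while H19 was nearest to Mest (0.075) and Grb10 to H19 (0.079). These are descriptions over 6 libraries, with 1 library behind much of the Peg3 and Plagl1 pattern.

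Other imprinted genes were read from lists sorted by the allele expressed where the gene is imprinted. For some listed genes that is only in certain tissues, and allele use in the palate was not measured. Of 20 tested genes of the paternal list, 0 passed the threshold (edgeR, 6 at an unadjusted p under 0.05, and 2 by DESeq2), with 14 of 20 log2 fold changes above 0 and a median of 0.32. Among all 14233 genes tested, 0.534% passed and 2021 had an unadjusted p under 0.05 (edgeR). DESeq2 passed 486 genes in all, and 51.5% of all log2 fold changes (edgeR) were above 0. Without knockout library 2 the median of the list was 0.061 and 2 of 20 were higher past the threshold, Peg10 and Sfmbt2, where 0.554% of all genes were. Peg10, a retrotransposon-derived gene needed in the placenta, stood at 557, 637 and 611 CPM in wild type libraries 2, 3 and 4 and at 777, 925 and 907 CPM in knockout libraries 1, 2 and 3. Its groups did not overlap, as in 12.3% of all genes tested in this higher direction (log2 fold change 0.53, SE 0.12, adjusted p = 0.153, and 0.47 with adjusted p = 0.0285 without knockout library 2). Sfmbt2, a Polycomb group gene, stood at 5.7 to 8.2 CPM in the wild type and at 12.9, 37.5 and 13.3 CPM in the knockout libraries (log2 fold change 1.60, adjusted p = 0.210, and 0.89 with adjusted p = 0.0359 without knockout library 2). The noncoding RNA Kcnq1ot1 stood at 164 to 288 CPM in the wild type and at 422, 2339 and 225 CPM in the knockout libraries (log2 fold change 2.10, adjusted p = 0.323, and 0.47 without knockout library 2). Nnat, a membrane proteolipid of neural and other tissues, stood at 261 ± 47.0 and 183 ± 55.0 CPM (SD of 3 each, adjusted p = 0.370). Sgce, which shares a promoter region with Peg10, was also higher in each knockout library, at 36.8 to 41.4 CPM against 30.7 to 31.3 CPM, and is named here after its values were seen (adjusted p = 0.260).

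Of 24 tested genes of the maternal list, 1 fell, 0 rose and 23 did not pass (edgeR, 8 at an unadjusted p under 0.05, and 2 past the threshold by DESeq2, Cdkn1c and Asb4). Among all 14233 genes tested, 0.534% passed and 2021 had an unadjusted p under 0.05 (edgeR), and DESeq2 passed 486. The median of the list was -0.033 and 12 of 24 were positive, where 51.5% of all genes were. Cdkn1c, the cyclin-dependent kinase inhibitor p57 that restrains growth of the embryo, fell from 726, 648 and 648 CPM in wild type libraries 2, 3 and 4 to 411, 376 and 428 CPM in knockout libraries 1, 2 and 3. For Cdkn1c the fitted log2 fold change was -0.74 (SE 0.11, adjusted p = 0.0471). It was -0.69 without knockout library 2 (adjusted p = 0.00326) and did not pass without wild type library 2, 3 or 4 or knockout library 1 or 3 (-0.78 to -0.68, adjusted p = 0.101 to 0.293). The Cdkn1c call was also lost with the earlier edgeR method and with a replicate block, which compares only replicates 2 and 3. Asb4, named here after its values were seen, stood at 142, 180.2 and 171 CPM in wild type libraries 2, 3 and 4 and at 253, 216 and 363 CPM in knockout libraries 1, 2 and 3. Its groups did not overlap, as in 12.3% of all genes tested in this higher direction (log2 fold change 0.76, SE 0.20, edgeR adjusted p = 0.209). Gnas, the stimulatory G protein subunit, stood at 1243 ± 31.1 and 1091 ± 114 CPM (SD of 3 each, adjusted p = 0.491). Rian, a noncoding RNA of the Dlk1 locus, stood at 303 to 378 CPM in the wild type and at 261, 855 and 260.1 CPM in knockout libraries 1, 2 and 3 (log2 fold change 0.44, adjusted p = 0.661, and -0.39 without knockout library 2), and is named here after its values were seen.

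In the IGF pathway through which Igf2 acts, 0 of 17 tested genes passed with all 6 libraries (edgeR, 4 at an unadjusted p under 0.05, and 2 by DESeq2), and their log2 fold changes had a median of -0.047 (0.00050 without knockout library 2). Among all 14233 genes tested, 0.534% passed and 2021 had an unadjusted p under 0.05 (edgeR), and DESeq2 passed 486. Igf1, the sister ligand, stood at 352, 326 and 330.4 CPM in wild type libraries 2, 3 and 4 and at 256, 694 and 346 CPM in knockout libraries 1, 2 and 3 (log2 fold change 0.36, adjusted p = 0.617, and -0.17 without knockout library 2). The signalling receptor Igf1r stood at 249 to 252 CPM in the wild type and at 312, 367 and 293 CPM in the knockout libraries, without overlap (log2 fold change 0.37, SE 0.12, adjusted p = 0.269). Of all genes tested, 12.3% were separated in this higher direction. Igf2r, the maternally expressed receptor that removes IGF2, stood at 372 ± 47.9 and 349.8 ± 70.7 CPM (SD of 3 each, adjusted p = 0.824). Irs1, the docking protein below the receptors, stood at 123 ± 4.76 and 156 ± 5.56 CPM (SD of 3 each, adjusted p = 0.216), also without overlap. Of the binding proteins, Igfbp5 was the most abundant by CPM, at 2679.6 ± 82.8 and 2837 ± 243 CPM (SD of 3 each, adjusted p = 0.779). Igfbp4 stood at 620.0, 572 and 594 CPM in the wild type and at 407, 310.0 and 467 CPM in the knockout libraries (log2 fold change -0.59, adjusted p = 0.214), and it was lower past the threshold without knockout library 2 (-0.46, edgeR adjusted p = 0.0233).

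**Figure D5:**
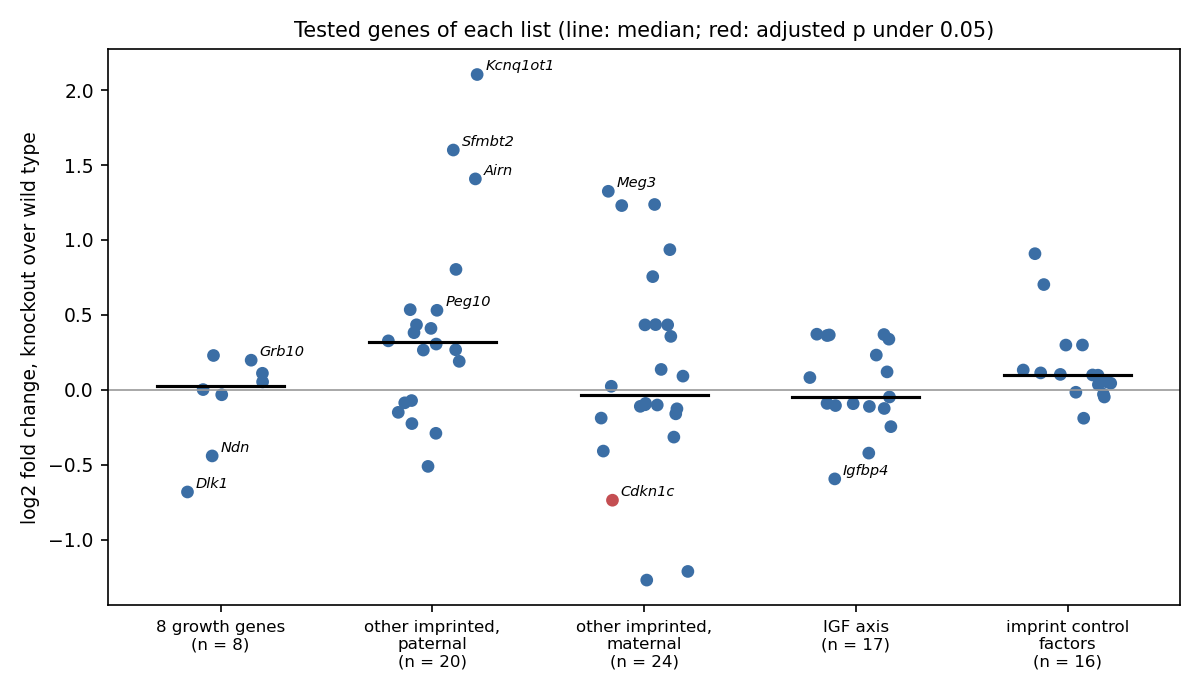
Log2 fold change, knockout over wild type, of each tested gene (points) of the 8 growth genes, the other imprinted genes by paternal or maternal list, the IGF pathway and the imprint control factors, with a line at each median and red for an adjusted p under 0.05. Cdkn1c is the only red point, and the medians run from -0.047 for the IGF pathway to 0.32 for the paternal list.

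Factors that set or keep imprints also gave 0 of 16 genes past the threshold (edgeR, 2 at an unadjusted p under 0.05, and 0 by DESeq2 and with any 1 library left out), with a median log2 fold change of 0.099. Among all 14233 genes tested, 0.534% passed and 2021 had an unadjusted p under 0.05 (edgeR). Zfp57, a zinc finger protein that holds methylation at imprinting control regions, stood at 41.3, 42.8 and 36.2 CPM in wild type libraries 2, 3 and 4 and at 63.8, 115 and 47.1 CPM in knockout libraries 1, 2 and 3 (log2 fold change 0.91, adjusted p = 0.283, and 0.46 without knockout library 2). Its corepressor Trim28 stood at 407 ± 21.5 and 394 ± 81.5 CPM (SD of 3 each, adjusted p = 0.912). The maintenance methyltransferase Dnmt1 stood at 248 to 266 CPM in the wild type and 273 to 282 CPM in the knockout (adjusted p = 0.614) and the de novo enzyme Dnmt3a at 406 ± 3.86 and 402 ± 12.4 CPM (SD of 3 each, adjusted p = 0.951). Tet2, a methylcytosine dioxygenase, stood at 62.0 ± 7.88 and 101 ± 38.8 CPM (SD of 3 each, adjusted p = 0.313, log2 fold change 0.70, and 0.33 without knockout library 2).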

How the data were processed

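Each deposited file holds raw counts per gene symbol for 1 library, made by the authors from 25 bp paired reads of a stranded mRNA kit, per the labels. The submitters' processing notes name TopHat2, SAMtools, HTSeq and mm9. Annotation, strand and multiple-alignment settings: not given in the sources used here, so overlapping or antisense genes may share or lose counts. The 5 category lines per file, 33.6% to 65.8% of listed pairs, stayed out. Groups came from sample titles. The labels name biological replicates but no litter or batch, so p-values measure the spread between these samples. No 2 libraries of a group agreed within sampling noise (chi-square per degree of freedom 11.5 to 160).

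Genes were filtered with filterByExpr, scaled by trimmed mean of M-values and tested with edgeR 4.0.16 (robust quasi-likelihood, R 4.3.3), Benjamini-Hochberg over 14233 genes, threshold 0.05. The script was tested on simulated data. Intervals are 95%. Alternatives were other size factors and filters, DESeq2 1.42.0, limma 3.58.1 voom, the earlier edgeR method, a replicate block and leaving out each library. Exon lengths, joined over the listed transcripts of a gene, came from GENCODE vM21, matched by symbol only. Members and lists were chosen with earlier results of these data known. Named were the members, their neighbours of at least 10 counts in a library, per list the genes past the threshold or else the 2 of smallest p, plus the 3 most abundant, and always Meg3, Cdkn1c, Igf2r, Igf1r and Kmt2d. Like genes used log2 CPM with a prior count of 2 and left out predicted genes.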

Additional observations from a re-analysis of the deposited data

How the results depend on the processing

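Dlk1 and Ndn were below 0 in all 15 alternatives. Dlk1 passed under DESeq2 (-0.69) and without knockout library 2 only. Sign changes of members: Mest was -0.0058 with median-of-ratios factors, -0.011 with upper quartile factors, -0.0059 under DESeq2 and -0.030 with no filter. Scaling by total counts alone gave -0.19 for H19, -0.10 for Peg3, -0.23 for Mest and -0.041 for Grb10, where the median of all genes was -0.23. With single libraries left out the log2 fold changes ran from -0.094 to 0.0089 for Igf2, 0.019 to 0.095 for H19, -0.81 to -0.54 for Dlk1, -0.12 to 0.23 for Peg3, -0.021 to 0.033 for Mest and -0.11 to 0.41 for Plagl1.

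Genes called numbered 76, against 403 with total counts, 486 under DESeq2 and 0 to 307 with a library left out. Members called were 0, 1 under DESeq2 and 0 to 1 with a library left out. For the paternal list the count was 0, 2 under DESeq2 and 0 to 2 with a library left out. For the maternal list it was 1, 2 with total counts or DESeq2, 0 with the earlier edgeR method and 0 to 1 with a library left out. For the IGF pathway it was 0, 1 with total counts, 2 under DESeq2 and 0 to 1 with a library left out. Causes were not tested.

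Both groups have replicates numbered 2 and 3, and deviations of same-numbered libraries correlated at 0.21 and -0.14, so the numbers were not taken to pair samples. The replicate block gave 301 genes called, 0 members, 1 gene of the paternal and 0 of the maternal list, and log2 fold changes of -0.0084 for H19 and -0.027 for Mest. Depth was lowest in knockout library 2, and the lowest count of a member in any library was 874, for Ndn there.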
